A study of Mus musculus with 6 samples.

Results

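The cadherins and protocadherins of mouse embryonic fibroblasts (MEFs) were described on 6 Affymetrix arrays, 3 from Pax7-/- cells and 3 from Pax7+/+ cells. A member was any gene whose symbol is Cdh followed by a number, or Pcdh followed by letters and numbers, with a probe set that names no other gene. Cdh15 was left out by that rule. This gave 57 members of 22180 genes measured: 22 cadherins, 12 protocadherins that lie singly in the genome, all 22 members of the clustered beta group and 1 of the clustered gamma group. Where a gene had more than 1 probe set (4 members), the one whose mean over the 6 arrays was highest stands for it.

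Both genotypes were of an F1 (C57Bl6N x 129Sv) strain, were grown in serum-containing medium and were collected at confluence, with biological replicates numbered 1 to 3 in each. Pax7 is a paired-box regulator best known from muscle satellite cells, and the comparison asks how its loss alters expression in fibroblasts. The labels do not give the Pax7 allele, the age of the embryos, or the embryo or culture behind each number, so that p-values measure only the spread between these samples. The cell type label reads ESCs (embryonic stem cells), while titles and design name fibroblasts. Signals are on the log2 scale, and each difference is knockout minus wild type.

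Cadherins are transmembrane proteins whose extracellular repeats bind calcium and hold neighbouring cells together. Classical cadherins, of type I and type II, reach through beta-catenin and alpha-catenin to the actin cytoskeleton, and mesenchymal cells typically carry N-cadherin (Cdh2) and cadherin-11 (Cdh11) in place of the epithelial E-cadherin (Cdh1). Protocadherins lack the catenin-binding tail. The clustered ones give single neurons a surface identity, and the non-clustered delta-1 and delta-2 groups act in cell sorting, motility and wiring, best known from the nervous system.

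The fibroblasts of both genotypes carried signal for 7 cadherins and 4 protocadherins: Cdh11, Cdh2, Cdh3, Cdh6, Cdh13, Cdh24, Cdh4 and the protocadherins Pcdh18, Pcdh19, Pcdh7 and Pcdh10 lay above background on all 6 arrays. Cdh1 was not above background in the mean of either genotype. No member passed the test for a difference between genotypes. In the fit that takes the replicate number as a block, the smallest p among members belonged to Pcdh18, a delta-2 protocadherin, whose signal was lower in the knockout in all 3 pairs of equal replicate number, by a mean of 0.45 on the log2 scale (0.734 of the wild type signal). The largest positive difference was that of Cdh18, a type II cadherin, at 0.51, and it was spread unevenly over the pairs. Replicate 3 differed from replicates 1 and 2 by up to 2.55. In both genotypes it was over 1 higher for 8 members (23.0% of all genes) and over 1 lower for 2 (8.95% of all genes).

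Limma with genotype as the only term called 0 of 57 members after Benjamini-Hochberg adjustment (0% of all genes), and 0 had an unadjusted p under 0.05 (0.0676% of all genes). With the replicate number as a block it again called 0 members, where 17 genes or 0.0766% of all genes were called. In that fit 5 members had an unadjusted p under 0.05, against 6.73% of all genes, 4 of them lower (3.45% of all genes) and 1 higher (3.28% of all genes). The lower ones were Pcdh18, Pcdhb7, Cdh3 and Pcdh7, and the higher one was Cdh18. In all 3 pairs, 8 members were lower (13.8% of all genes) and 5 were higher (13.8% of all genes). Those shares of the members, 14.0% and 8.77%, lie near or under the background. Among the 20 members above background, 4 were lower in all pairs (15.3% of all genes above background) and 2 were higher (14.8%). With the block and each replicate number left out of both genotypes in turn, Pcdh18 ranged from -0.48 to -0.42, Cdh3 from -0.33 to -0.20 and Cdh18 from 0.30 to 0.71. No member had genotypes that did not overlap, against 0.744% of all genes lower and 0.667% higher. The median difference of the members was 0.00 (SD over 57 members 0.15), and that of all genes was -0.00 (SD 0.14). RNA of whole cultures was measured, so fewer cells that carry a transcript and less of it per cell cannot be told apart.

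The pair of replicate 3 arrays stood apart. Its correlation was 0.992, that of any pair among the remaining 4 arrays lay between 0.988 and 0.990, and one of these with a replicate 3 array gave 0.814 to 0.844. Background was taken on each array as percentile 95 of the genes for olfactory or vomeronasal receptors, which serve in the nose. It was 5.43, 5.34 and 4.63 on knockout replicates 1, 2 and 3, against 5.44, 5.33 and 4.65 in wild type. The interquartile range of all genes was 1.65, 1.65 and 2.98 on these knockout arrays, against 1.61, 1.69 and 3.02 in wild type. Signals of all genes thus spread more widely on replicate 3. The part of that spread in the replicate 3 differences of single members was not tested. Each member is therefore given by array, and each genotype difference by pair of equal number. The labels do not say that equal numbers belong together, and the correlations do not show it for replicates 1 and 2. The Pax7 probe set read 6.17, 5.95 and 5.05 in the knockout and 6.14, 5.65 and 4.88 in wild type. Where this probe set lies relative to the deletion is not stated in the labels, so it checks no label.

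In the mean of at least 1 genotype, 20 of the 57 members (35.1%) lay above background, against 55.7% of all genes. On all 6 arrays 11 members did (19.3%, against 37.9% of all genes), and 27 did on none. On the 2 replicate 3 arrays alone 11 members lay above it (19.3%, against 10.9% of all genes), 7 of them beta protocadherins. Cdh10, Cdh17 and Pcdh9 are among these 11 and also among the 20, through their replicate 3 arrays alone. No member was above background only on the 4 arrays of replicates 1 and 2 (2.01% of all genes). The background is lower on the replicate 3 arrays by 0.75. Cdh1 is counted on replicate 3 alone although its own signal differed there by -0.27 in the knockout and -0.34 in wild type. For the other members the part of the background level in these counts was not tested.

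**Figure D1:**
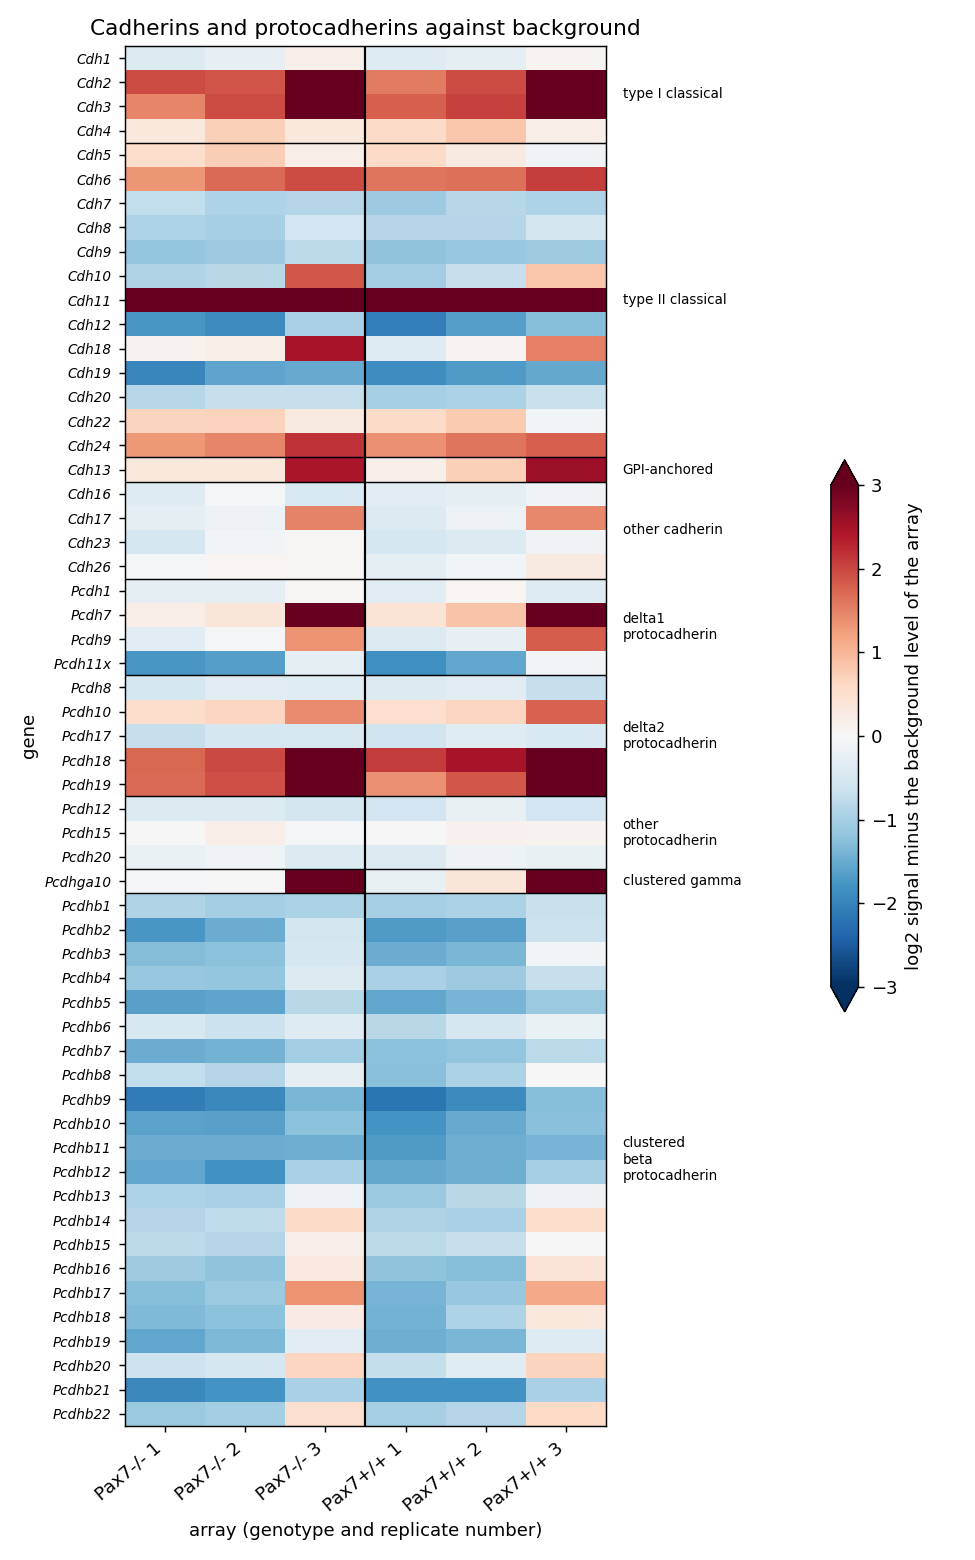
Log2 signal minus the background level of the array for all 57 members (rows, grouped by role) on the 3 Pax7-/- and then the 3 Pax7+/+ arrays (columns); red is above background and blue below, with colours saturating beyond 3 in either direction. Cdh11 is deep red on every array, the 22 beta protocadherins are blue on replicates 1 and 2 of both genotypes, and 7 of them lie above 0 on both replicate 3 arrays, Pcdhb15 only just.

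Among type I classical cadherins, Cdh2 (N-cadherin), the main cadherin of many mesenchymal, neural and muscle cells, read 7.38, 7.23 and 9.35 in knockout replicates 1, 2 and 3, against 7.0, 7.29 and 8.90 in wild type. The replicate 3 array was the highest of each genotype, and the genotypes overlapped. The difference was 0.25 (0.38, -0.07 and 0.44 in the 3 pairs; SE 0.77, or 0.12 with the replicate block; limma, adjusted p = 1.00, or 0.755 with the block). Its second probe set read 4.02, 4.21 and 6.11 in the knockout, against 3.84, 4.05 and 5.82 in wild type, above background only on replicate 3. It gave 0.19, 0.17 and 0.29 in the pairs and thus differed from the first in the sign of the second pair.

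Cdh3 (P-cadherin), known from basal layers of epithelia and from placenta, read 6.89, 7.30 and 8.47 in the knockout, against 7.23, 7.38 and 8.79 in wild type. Every knockout array lay below its wild type partner, and the genotypes overlapped. Knockout replicate 2 lay above wild type replicate 1, so a lower signal in every pair rests on matching replicates by number. The difference was -0.25 (-0.35, -0.08 and -0.32 in the pairs; SE 0.59, or 0.10 with the block; limma, adjusted p = 0.689 with the block). With the block its 95% interval, not adjusted for the number of genes, ran from -0.47 to -0.03. With no block, omitting wild type replicate 3 gave 0.25 and omitting knockout replicate 1 gave 0.09. A value that omits a single array compares genotypes with different shares of replicate 3.

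Cdh4 (R-cadherin), first described in the retina, read 5.74, 6.06 and 4.94 in the knockout, against 6.01, 6.17 and 4.83 in wild type. It lay 0.18 to 0.83 above background, and its difference was -0.09. The second Cdh4 probe set had 0.23 in the replicate 1 pair, where the first had -0.27, with both above background. It was below background on replicate 3. Cdh1 (E-cadherin) read 5.03, 5.09 and 4.79 in the knockout, against 5.06, 5.06 and 4.72 in wild type. It exceeded background only on both replicate 3 arrays, and no size is given for it.

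Of the 13 type II cadherins, 7 lay above background in a genotype mean and 3 on all arrays. Cdh11, the cadherin of osteoblasts and of synovial and other fibroblasts, read 10.01, 9.91 and 10.65 in the knockout, against 9.69, 9.93 and 10.64 in wild type. Its signal was at least 4.25 above background on every array. The difference was 0.10 (SE 0.34, or 0.10 with the block; limma, adjusted p = 1.00, or 0.900 with the block), and it came from the replicate 1 pair at 0.32, the others being -0.02 and 0.01. With the block its 95% interval ran from -0.13 to 0.33. Cdh6, a cadherin of developing kidney and neural crest, read 6.75, 7.04 and 6.58 in the knockout, against 7.05, 6.99 and 6.72 in wild type. Cdh24, which binds catenins, read 6.74, 6.81 and 6.80 in the knockout and 6.82, 6.94 and 6.45 in wild type. For Cdh6 and Cdh24 the replicate 3 arrays did not stand out in signal as they did for Cdh2, and the differences were -0.13 and 0.05.

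Cdh18, known from brain, read 5.54, 5.53 and 7.10 in the knockout, against 5.06, 5.42 and 6.16 in wild type. It was higher in the knockout in each pair, by 0.49, 0.11 and 0.93, and the genotypes overlapped. The difference of 0.51 (SE 0.53, or 0.14 with the block) had a limma adjusted p of 1.00, or 0.484 with the block. Wild type replicate 1 lay below background. With each signal raised to the background of its array where it was lower, the difference was 0.38. Replicates 1 and 2 alone gave 0.30, and omitting knockout replicate 3 gave -0.01. Among all genes 0.537% differed by at least 0.5 in either direction, and Cdh18 was the 1 member that did.

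Cdh10, also a cadherin of brain, read 4.52, 4.52 and 6.48 in the knockout and 4.40, 4.63 and 5.48 in wild type. Only its replicate 3 arrays lay above background, and its wild type mean did not, so no size is given. Cdh22, known from brain and pituitary, read 6.09, 6.03 and 4.91 in the knockout, against 6.02, 6.12 and 4.56 in wild type, and lay below background on wild type replicate 3. The endothelial Cdh5 (VE-cadherin) read 5.96, 6.07 and 4.83 in the knockout, against 6.01, 5.61 and 4.53 in wild type. Its difference was 0.24 (-0.05, 0.47 and 0.30 in the pairs; limma, adjusted p = 0.764 with the block). Wild type replicate 3 of Cdh5 lay below background, and the difference was 0.20 with signals raised to it. Beside it, 2 of 10 other endothelial markers (Erg and Egfl7) lay above background (55.7% of all genes), while Pecam1, Tek, Tie1, Kdr, Emcn, Esam, Cldn5 and Robo4 did not. Their summed linear signal was 239 to 379 in the knockout and 234 to 370 in wild type. The 6 remaining type II members (Cdh7, Cdh8, Cdh9, Cdh12, Cdh19 and Cdh20) were above background on no array.

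**Figure D2:**
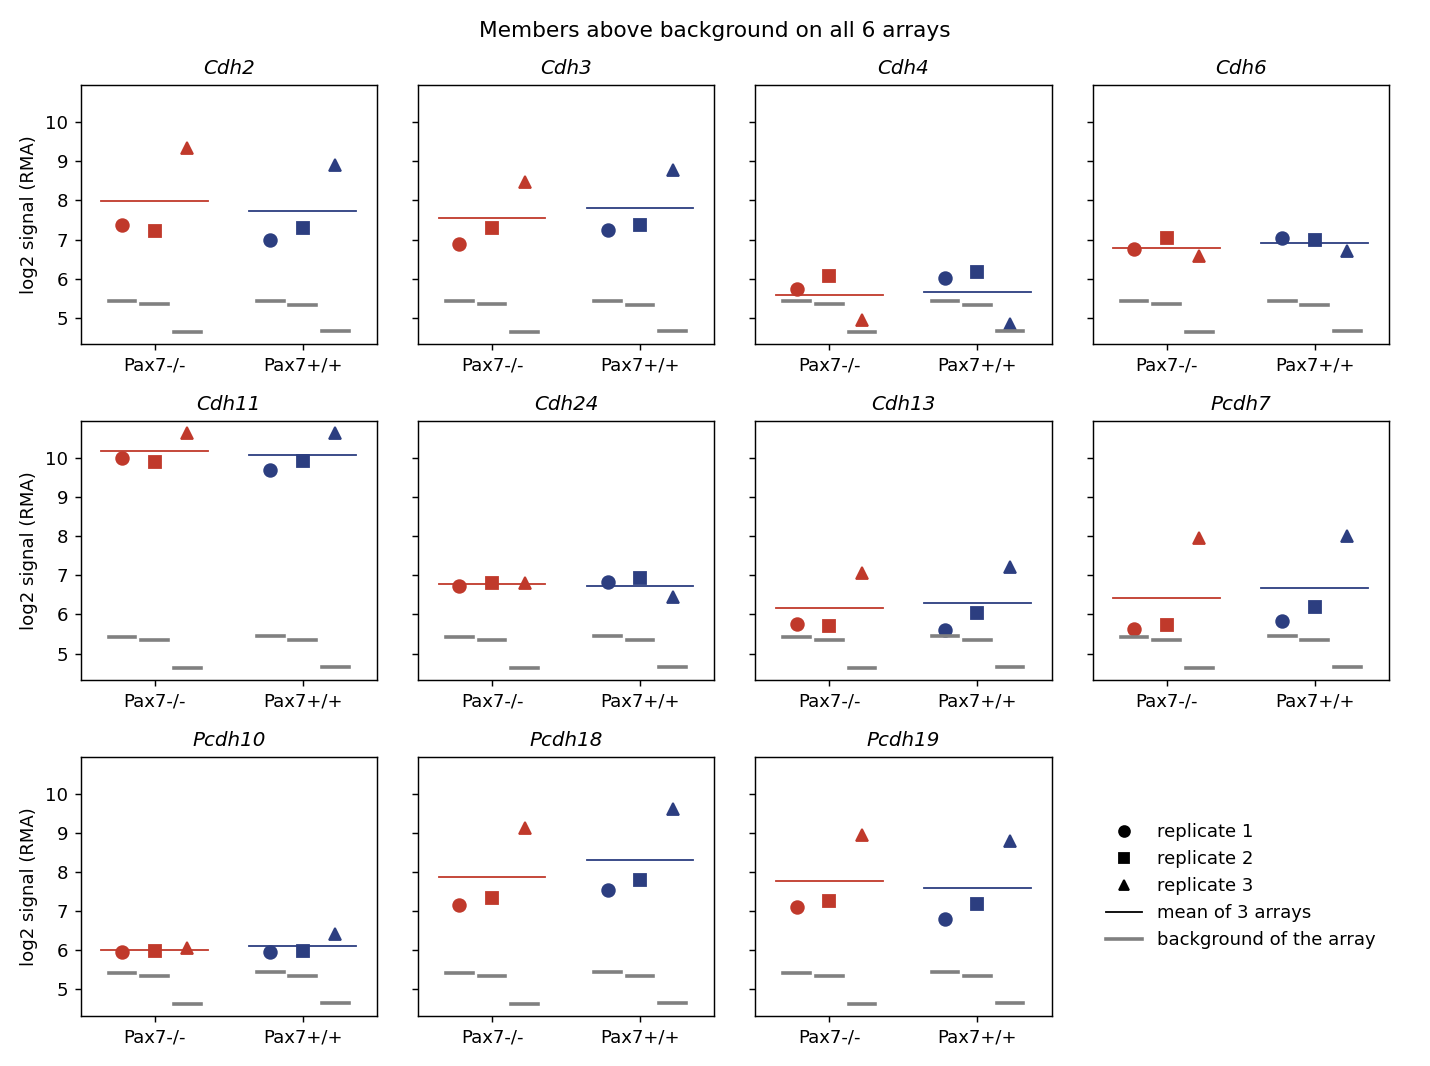
Log2 signal on each array for the 11 members above background on all 6 arrays, with the Pax7-/- arrays left of the Pax7+/+ arrays; symbols mark the replicate number, thin lines the mean of 3 arrays and grey bars the background of each array. For Cdh2, Cdh3, Cdh13, Pcdh7, Pcdh18 and Pcdh19 the replicate 3 arrays lie far above the other 2 of their genotype, while Cdh4 is lower there. Cdh24 and Pcdh10 move little on replicate 3 in the knockout (0.03 and 0.09), and by -0.43 and 0.46 in wild type.

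Cdh13 (T-cadherin) is held in the membrane by a glycolipid (GPI) anchor, has no cytoplasmic tail and binds adiponectin. It read 5.74, 5.69 and 7.07 in the knockout, against 5.59, 6.04 and 7.22 in wild type. On replicates 1 and 2 it was 0.15 to 0.71 above background, and its difference of -0.12 had mixed signs over the pairs (0.15, -0.35 and -0.15). Cdh17, the liver-intestine cadherin, read 5.15, 5.16 and 6.12 in the knockout and 5.04, 5.16 and 6.09 in wild type, above background on replicate 3 alone. The kidney cadherin Cdh16 read 5.05, 5.29 and 4.17 in the knockout, against 5.12, 5.05 and 4.54 in wild type, on no array above background. Cdh26 read 5.38, 5.40 and 4.66 in the knockout and 5.18, 5.25 and 4.93 in wild type, and its wild type mean was not above background, so no size is given. Cdh23, which forms the tip links of hair cells together with Pcdh15, was not above background in either mean.

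The delta protocadherins held the member with the smallest p in the blocked fit. Pcdh18, a delta-2 protocadherin whose tail is known to bind the adaptor Dab1, read 7.16, 7.33 and 9.12 in the knockout, against 7.54, 7.80 and 9.61 in wild type. Each knockout array lay below its wild type partner, while the replicate 3 arrays of both genotypes lay above all others, so that the genotypes overlapped. The differences in the 3 pairs were -0.38, -0.46 and -0.49, with a mean of -0.45 (SE 0.77, or 0.09 with the block). In limma with genotype alone the unadjusted p was 0.584 (adjusted 1.00), and with the block it was 0.000713 (adjusted 0.193). With the block the 95% interval ran from -0.65 to -0.24, and Pcdh18 ranked 82 among all genes by p. That interval is not adjusted for the number of genes or for picking the member with the smallest p. With replicate 3 as a batch block, which does not pair replicates 1 and 2 by number, the limma adjusted p was 0.293. Within replicates 1 and 2 the difference was -0.42. With wild type replicate 3 left out the value was 0.20, with knockout replicate 1 left out -0.09 and with knockout replicate 2 left out -0.18. It was -0.84, -0.71 and -1.07 without wild type replicate 1, wild type replicate 2 and knockout replicate 3.

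Pcdh19, a delta-2 protocadherin that associates with N-cadherin and whose loss causes an epilepsy in humans, read 7.12, 7.27 and 8.96 in the knockout, against 6.81, 7.19 and 8.80 in wild type. The knockout was higher in each pair, by 0.31, 0.08 and 0.16, opposite in sign to Pcdh18. Knockout replicate 1 lay below wild type replicate 2, so a higher signal in every pair rests on matching replicates by number. The mean of 0.18 (SE 0.72, or 0.09 with the block) had a limma adjusted p of 0.784 with the block. Its 95% interval in that fit was -0.03 to 0.40. Whether Pcdh18 and Pcdh19 differ in their genotype difference was not tested.

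The promoters of this pair of delta-2 genes, which both lay well above background and had opposite signs, are printed to show what they share. Each window of 300 bases spans the gene's start and comes from RefSeq, build GRCm38.p6, at chr3:49757267-49757566 and chrX:133688944-133689243, both on the minus strand. Capitals mark the longest run found in both.
Pcdh18: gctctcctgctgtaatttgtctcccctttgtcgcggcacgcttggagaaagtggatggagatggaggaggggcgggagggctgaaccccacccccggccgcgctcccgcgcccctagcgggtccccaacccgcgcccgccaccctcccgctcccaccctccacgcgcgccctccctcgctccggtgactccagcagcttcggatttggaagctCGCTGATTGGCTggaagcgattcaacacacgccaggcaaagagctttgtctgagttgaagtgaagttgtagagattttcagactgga
Pcdh19: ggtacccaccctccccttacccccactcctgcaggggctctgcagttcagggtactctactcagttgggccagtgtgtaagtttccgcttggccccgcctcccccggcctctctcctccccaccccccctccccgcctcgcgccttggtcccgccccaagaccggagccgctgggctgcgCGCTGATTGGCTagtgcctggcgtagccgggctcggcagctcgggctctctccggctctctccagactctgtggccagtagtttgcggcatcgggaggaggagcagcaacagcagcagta
The shared run of 12 bases begins 37 bases before the start of Pcdh18 and 70 bases before that of Pcdh19. It holds CCAAT, the box bound by NF-Y, on the opposite strand. On either strand, the run occurs in 0.18% of the 32851 promoter windows of the table and CCAAT in 37.4%. Of the 57 members 21 had such a window, and 14 of these held CCAAT in any of their windows. No member other than Pcdh18 and Pcdh19 held the run. Members are counted by gene and the percentages by window, so these shares cannot be compared directly. The letters CACCTG, an E-box of Snail and Zeb factors, occurred in 20.2% of all windows and in 3 of the 21 members, Cdh7, Pcdh7 and Pcdh15. The paired-class homeodomain palindrome, TAAT and ATTA with 3 bases between, occurred in 0.487% of windows and in 0 of the 21. Both motifs were searched on either strand, and none of these matches shows a bound site.

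Pcdh7, a delta-1 protocadherin, read 5.63, 5.72 and 7.95 in the knockout, against 5.84, 6.18 and 8.02 in wild type. All 3 pairs were lower in the knockout, at -0.21, -0.46 and -0.07 (mean -0.25, SE 0.86, or 0.10 with the block; limma, adjusted p = 0.716 with the block). Replicate 3 lay 2.28 above the mean of replicates 1 and 2 in the knockout and 2.01 above it in wild type. Omitting wild type replicate 3 gave 0.42, omitting knockout replicate 1 gave 0.15 and omitting knockout replicate 2 gave 0.11. Pcdh10, a delta-2 protocadherin that binds the actin regulator Nckap1, read 5.95, 5.99 and 6.05 in the knockout, against 5.95, 5.99 and 6.43 in wild type. It counts as lower in all 3 pairs, but the first 2 pairs differed by under 0.01 and its mean of -0.12 comes from the replicate 3 pair (-0.37). Pcdh9 was above background on replicate 3 alone, at 5.97 in the knockout and 6.46 in wild type. Pcdh15 read 5.44, 5.55 and 4.56 in the knockout, against 5.45, 5.47 and 4.75 in wild type, no farther than 0.20 from background on any array. The other non-clustered protocadherins (Pcdh1, Pcdh8, Pcdh11x, Pcdh12, Pcdh17 and Pcdh20) were not above background in either mean.

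**Figure D3:**
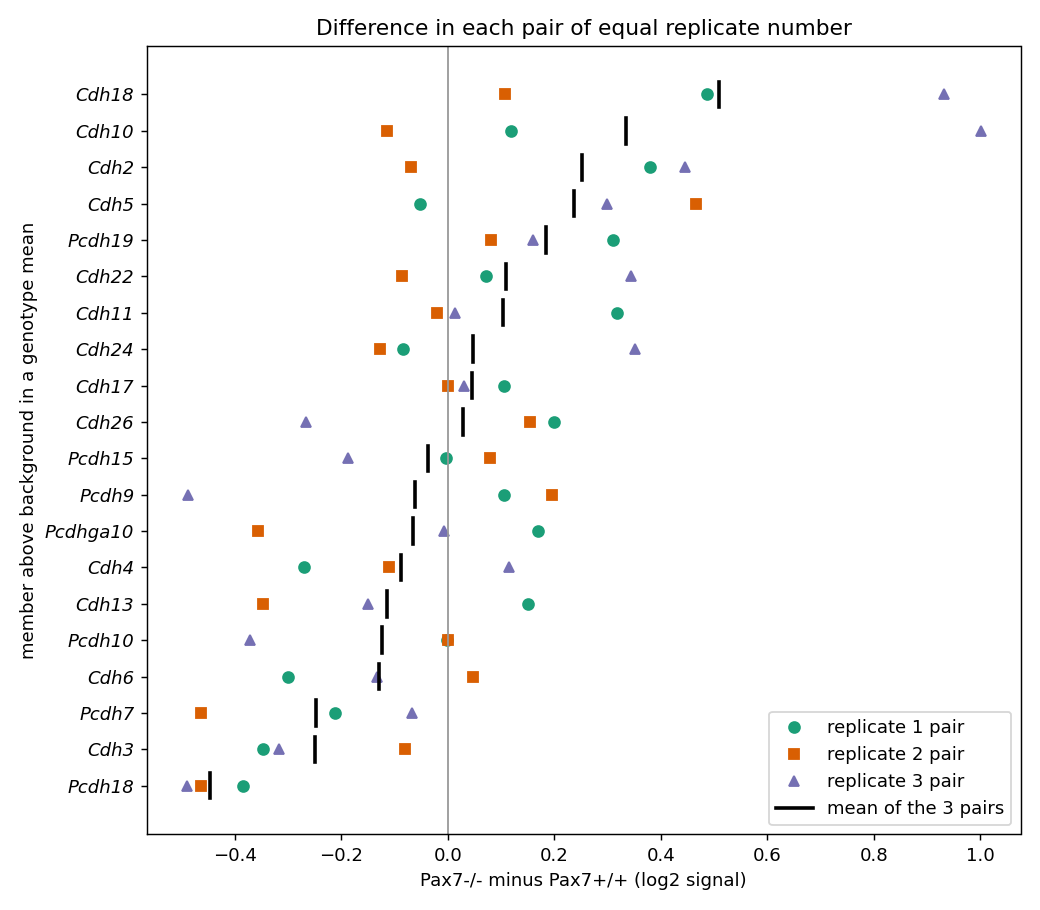
Knockout minus wild type log2 signal in each pair of equal replicate number (symbols) and their mean (bars) for the 20 members above background in a genotype mean. Pcdh18 is lower in every pair within a range of -0.49 to -0.38, whereas Cdh18 is higher in every pair over a range of 0.11 to 0.93; the wild type means of Cdh10 and Cdh26 are not above background.

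The clustered beta protocadherins were measured gene by gene, each by 1 probe set. Over these 22 genes the median log2 signal was 4.14, 4.13 and 4.23 in knockout replicates 1, 2 and 3, against 4.11, 4.18 and 4.35 in wild type. None was above background on replicates 1 and 2 of either genotype, and on replicate 3 it was 7 of 22 in the knockout and 7 of 22 in wild type. These were Pcdhb14, Pcdhb15, Pcdhb16, Pcdhb17, Pcdhb18, Pcdhb20 and Pcdhb22. Pcdhb17, the beta gene farthest apart between replicates, read 4.14, 4.23 and 5.98 in the knockout and 4.05, 4.19 and 5.79 in wild type. Differences between genotypes ran from -0.25 to 0.11 with a median of -0.00, and those of signals at background have no size. Pcdhb7, with an unadjusted p under 0.05 in the blocked fit, was above background on no array (3.94, 3.92 and 3.59 in the knockout, 4.20, 4.16 and 3.83 in wild type). Genes of this cluster are close in sequence, and a probe set that names 1 of them may still take up signal of another.

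Pcdhga10 was the 1 gamma member with a probe set of its own. It read 5.39, 5.35 and 7.96 in the knockout, against 5.22, 5.71 and 7.97 in wild type, at or near background on replicates 1 and 2. Its replicate 3 signal was the farthest of all members from the other replicates, by 2.59 in the knockout and 2.50 in wild type, and its genotype difference was -0.06. Replicate 1 of both genotypes lay below background, and the difference was -0.12 with signals raised to it. A probe set that names Pcdhga10 together with the predicted gene Gm19774 read 10.17, 10.20 and 10.37 in the knockout and 9.90, 10.19 and 10.24 in wild type. It did not show the replicate 3 difference, and which gene it reads was not tested. The alpha genes, with a probe set shared by 9 of them, read 5.89, 5.94 and 4.49 in the knockout and 6.002, 5.73 and 4.24 in wild type. A probe set shared by 9 gamma genes read 4.60, 4.68 and 4.07 in the knockout, against 4.62, 4.42 and 4.20 in wild type, below background on every array.

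Replicate 3 differed from replicates 1 and 2 in the same direction in both genotypes for 52 of 57 members. Signal was over 1 higher in both genotypes for 8 members (Cdh2, Cdh3, Cdh13, Pcdh7, Pcdh18, Pcdh19, Pcdhb17 and Pcdhga10) and over 1 lower in both for 2 (Cdh5 and Cdh22). Over all genes, 23.0% were over 1 higher in both genotypes and 8.95% over 1 lower in both. Pcdh18, for example, was 1.88 higher on replicate 3 in the knockout and 1.95 higher in wild type. Cdh22 differed there by -1.16 in the knockout and by -1.51 in wild type, further than the background level itself (-0.75). These differences were not separated from the wider spread of all signals on the replicate 3 arrays. The labels give no batch, date or culture for the replicate numbers.

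**Figure D4:**
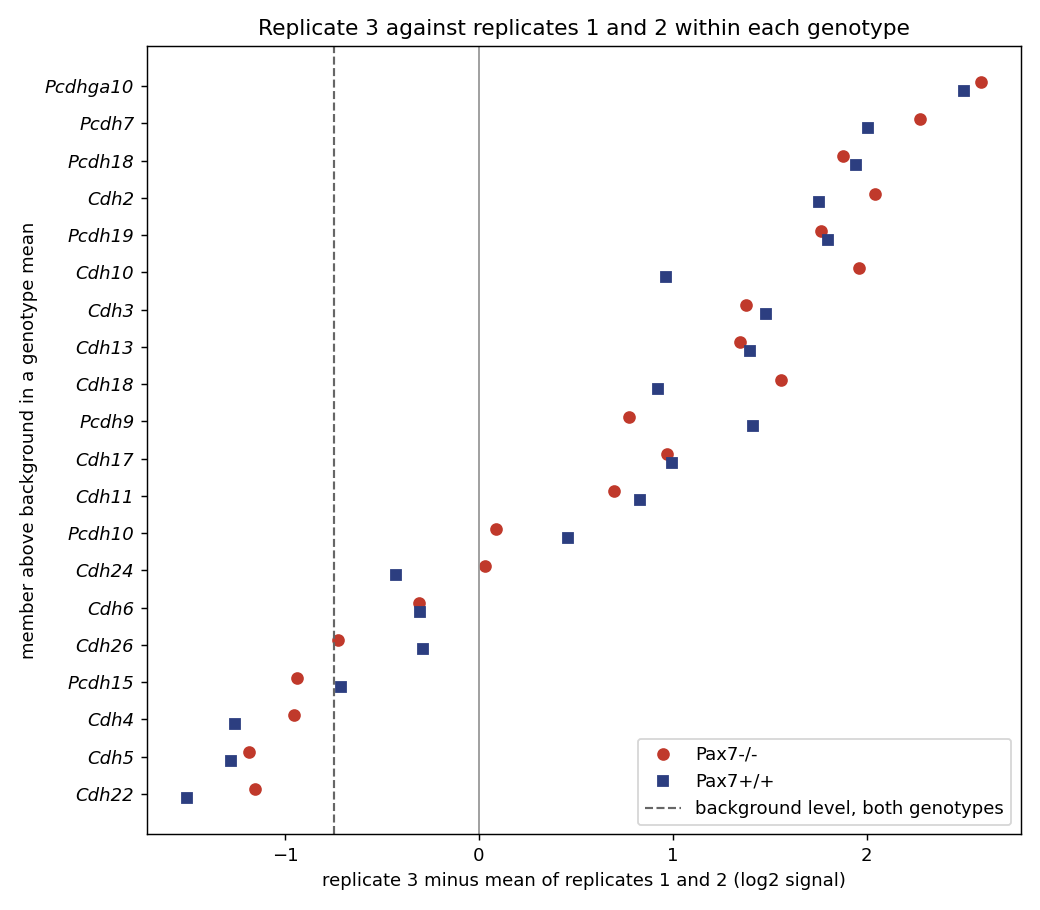
Log2 signal of replicate 3 minus the mean of replicates 1 and 2 within Pax7-/- (circles) and Pax7+/+ (squares) for the 20 members above background in a genotype mean; the dashed line is the same difference for the background level. Both genotypes fall close together for Pcdhga10 at about 2.5 and for Pcdh18 at about 1.9, and Cdh22 and Cdh5 lie below -1 in both.

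Genes that work with cadherins were described from lists chosen for this purpose, in which no gene passed the test in either fit (0.0766% of all genes with the block). Of 22 measured catenins and junction linkers, 20 were above background (55.7% of all genes). In all 3 pairs 8 were higher and 1 lower (13.8% of all genes in each direction), and the median difference was 0.05. Beta-catenin, Ctnnb1, chosen after its values were seen, was at 0.00 with 9.06, 8.99 and 9.65 in the knockout and 8.97, 9.11 and 9.62 in wild type. The scaffold Tjp1 (ZO-1) was at 0.42 (0.45, 0.56 and 0.25 in the pairs; limma, adjusted p = 0.309 with the block), the junction protein Lmo7 at -0.28, and plakoglobin, Jup, at 0.19. Nectins, which start adherens junctions, and their relatives had a median of 0.09 over 8 genes. In all pairs 2 were higher and 0 lower (13.8% of all genes in each direction). Pvr was at 0.23, Nectin1 at 0.23 and Cadm4 at 0.12. Desmosomal genes had 7 of 17 above background (55.7% of all genes) and a median of 0.04, with Pkp3 at -0.24, Pkp1 at 0.26 and Pkp4 at 0.09. All 9 desmosomal cadherins of the list (Dsc1 to Dsc3 and the Dsg genes) and desmoplakin, Dsp, were not above background.

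The proteases, kinases and phosphatases that process or modify cadherins had a median of 0.02 over 24 genes. In all pairs 2 were higher and 4 lower (13.8% of all genes in each direction). Furin, which cuts cadherin precursors, was at 0.21, the sheddase Adam17 at 0.21 and the convertase Pcsk6 at -0.19. Transcription factors of epithelial-mesenchymal transition, several of which repress Cdh1, had 10 of 12 above background (55.7% of all genes) and a median of -0.01. Twist2 was at 0.56 (0.79, 0.63 and 0.25 in the pairs; limma, adjusted p = 0.214 with the block), Prrx1 at -0.42 (adjusted p = 0.295) and Foxc2 at 0.26. Effectors of protocadherins and regulators of their clusters had a median of -0.05 over 19 genes. Of these, 2 were higher and 4 lower in all pairs (13.8% of all genes in each direction). The cohesin subunit Smc1a was at -0.26, the WAVE complex protein Cyfip2 at 0.21 and the kinase Ptk2b at 0.19. In wild type, replicates 1 and 2 of Twist2, Adam17, Pkp1 and Cyfip2 did not reach background. Nor did knockout replicates 1 and 2 and wild type replicate 1 of Lmo7, knockout replicates 1 and 3 of Pkp3, or knockout replicate 1 of Cyfip2, so these differences are partly set by background.

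Markers were set beside the label. All 12 fibroblast markers lay above background, with a median at percentiles 97.9 to 98.8 of all genes on the 6 arrays. In all 3 pairs 7 of these were lower in the knockout and 1 was higher (13.8% of all genes in each direction), and their median difference was -0.13. Lum, chosen after its values were seen, was at -0.70, -0.84 and -1.95 in the pairs without overlap, and its knockout mean was not above background. Of 10 pluripotency markers 3 lay above background (Pou5f1, Dppa3 and Lin28a), with a median at percentiles 33.0 to 42.9, and Nanog, Sox2 and Zfp42 did not. Above background were also 5 of 10 epithelial, 4 of 8 neural, 6 of 10 skeletal muscle, 1 of 5 bone and 2 of 6 macrophage markers. For each marker list the share over all genes to set beside it is 55.7%. Summed linear signals of the epithelial list were 323 to 536 in the knockout and 302 to 551 in wild type. Those of the neural list were 310 to 676 in the knockout and 287 to 569 in wild type. Those of the muscle list were 1074 to 1261 in the knockout and 850 to 1053 in wild type, without overlap. Without Acta1, left out after its values were seen, they were 381 to 546 in the knockout and 310 to 499 in wild type, which overlap. Acta1 itself had mixed pairs (-0.04, 0.14 and 0.70), and Myf5, Myh3, Myh8 and Chrna1 were not above background. In all 3 pairs 3 muscle markers were higher (Des, Ckm and Myog) and 0 lower (13.8% of all genes in each direction), the rest being mixed. Des read 6.68, 6.68 and 7.38 in the knockout, against 6.61, 6.56 and 6.64 in wild type, without overlap (limma, adjusted p = 0.727 with the block). The part of such cells in the signals of Cdh2, Cdh3, Cdh5, Cdh10 and Cdh18 was not tested.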

How the data were processed

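Total RNA of 6 samples was hybridised to Affymetrix arrays, 1 array per sample. Per the submitters' processing notes the authors made the deposited log2 signals with Partek and RMA (background correction, normalization and probe summary). Their versions and the build were not given in the sources used here. That the scale is log2 follows from the range of the values and from RMA. Values were used without another normalization. The deposited arrays did not share a common distribution. The interquartile range of all genes was 2.98 and 3.02 on the replicate 3 arrays, against 1.61 to 1.69 on the others. Signals of replicate 3 are therefore not directly comparable with those of replicates 1 and 2. The number of arrays limits the precision.

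Of 41345 probe sets, 23521 named 1 gene in the platform annotation (RefSeq symbols of GRCm38.p6 served for synonyms), which gave 22180 genes. Background was set on each array at percentile 95 of 1394 genes for olfactory or vomeronasal receptors. A member counted as above background where its mean in at least 1 genotype exceeded that genotype's mean background.

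Knockout was compared with wild type in limma 3.58.1 (R 4.3.3, lmFit and eBayes, two-sided) on all genes, with Benjamini-Hochberg adjustment and a threshold of 0.05. The code was tested on simulated data. Deviations from the genotype means correlated within the numbers at 0.920 (replicate 1), 0.895 (replicate 2) and 0.973 (replicate 3), above the bound of 0.1, and a fit with replicate number as block was added. Unequal numbers 1 and 2 correlated about as highly, at 0.898 and 0.910. These values set replicate 3 apart but do not show that replicates 1 and 2 pair by number across genotypes. The pairs of equal number follow the numbers in the titles alone.

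The members and lists were chosen with earlier results of these data known, and no test was run over them as a set. Every non-clustered member above background is named, besides Cdh1, Cdh5, Cdh16 and Cdh17, up to 6 clustered ones above background, and per list the 3 genes above background with the smallest p in the blocked fit. Other settings tried were batch and replicate blocks, left-out arrays, median centring, quantile normalization, the mean of probe sets, a filter on dim genes and an intensity trend. Further names, such as Pcdhb7 and Ctnnb1, were chosen after their values were seen.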

Additional observations from a re-analysis of the deposited data

How the results depend on the processing

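No member was called under any of the 17 alternatives, and the median difference of the members stayed within -0.04 to 0.02. Over all genes, limma called 17 with the replicate block, 19 with replicate 3 as a batch block, 1 within replicates 1 and 2, and 54 with an intensity trend and the block. With the block and without replicate number 1, 2 or 3 it called 98, 2 and 4 genes, and without single arrays 0. Members above background numbered 30 and 10 with percentiles 90 and 99 of the receptor genes, 19 with probe sets averaged and 11 when all 6 arrays were required. Within replicates 1 and 2 the sign turned for Cdh22 (-0.0073), Cdh24 (-0.11), Pcdh15 (0.038), Pcdh9 (0.15), Cdh1 (-0.0028) and Cdh16 (0.087), with or without the block. It also turned for Pcdh9 with quantile normalization (0.019) and for Pcdh15 with probe sets averaged (0.015). With the replicate block it turned without replicate 1 for Cdh11 (-0.0029), Cdh26 (-0.056) and Cdh4 (0.0025), and without replicate 2 for Cdh13 (0.00089), Cdh26 (-0.033) and Pcdhga10 (0.081). Without single arrays, which unbalances replicate 3 between genotypes, differences were -0.32 to 0.66 for Cdh10, -0.13 to 0.38 for Cdh11, -0.56 to 0.35 for Cdh13, -0.28 to 0.38 for Cdh17, -0.012 to 0.82 for Cdh18, -0.43 to 0.84 for Cdh2, -0.39 to 0.50 for Cdh22, -0.096 to 0.15 for Cdh24, -0.098 to 0.27 for Cdh26, -0.71 to 0.25 for Cdh3, -0.51 to 0.23 for Cdh4, -0.19 to 0.63 for Cdh5, -0.21 to 0.028 for Pcdh10, -0.27 to 0.28 for Pcdh15, -1.07 to 0.20 for Pcdh18, -0.40 to 0.78 for Pcdh19, -1.01 to 0.42 for Pcdh7, -0.32 to 0.41 for Pcdh9, -0.93 to 0.77 for Pcdhga10, -0.092 to 0.11 for Cdh1 and -0.29 to 0.27 for Cdh16. Cdh1, Cdh10, Cdh16, Cdh17 and Pcdh9 lay below background on all arrays of replicates 1 and 2. Cdh1, Cdh10, Cdh16 and Cdh26 were not above it in the mean of 1 or both genotypes. The values and signs of all these genes compare background at least in part and are no sizes. For 10 of the 22 named members the sign turned only without a single array. Cdh6 was the 1 named member whose sign never turned, at -0.25 to -0.026 without single arrays. No cause of the sign changes was tested, and the imbalance of replicate 3 was not tested as one. The block changed no call of a member. With 3 arrays a genotype and many members at background, small differences could not be resolved.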
